A study of Mus musculus with 3 samples.

Results

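The barcodes described here are those with at least 200 but fewer than 500 detected genes and at most 50% of their counts from the mitochondrial genome, called the low class below. They were chosen by their own counts, by the number of detected genes and the mitochondrial share, in each of 3 libraries of mouse hepatocytes. They numbered 1335 in the normal diet library (ND), 1530 in the high fat library (HFD) and 1077 in the library of high fat diet with hyodeoxycholic acid (HFD_HDCA), 3942 of 16918 barcodes in all (23.3%). The comparison class was the gene-rich barcodes of the same library, with 500 genes or more under the same mitochondrial limit, which numbered 1441, 1368 and 1923. A further 8194 barcodes had over 50% mitochondrial counts and 50 had under 200 genes.

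The study profiled primary hepatocytes of wild-type (WT) mice by droplet single-cell RNA sequencing of transcript 3′ ends. Mice received ND, a 60% fat diet (HFD), or that fat diet with 0.25% hyodeoxycholic acid, a bile acid (HFD_HDCA), for 12 weeks, and the liver cells of all 3 groups were released by collagenase perfusion. Each diet had 1 library, so no difference between diets has a replicate check. The sources used here do not state the number of mice per library, their sex or their age.

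In droplet sequencing a barcode tags the RNA of one droplet, and the number of genes detected grows with the number of RNA molecules captured. Messenger RNAs for secreted and membrane proteins are translated on the endoplasmic reticulum, the membrane network on which a hepatocyte makes the plasma proteins. Other transcripts, such as Malat1 and Neat1, stay in the nucleus, and some gene models on the reference genome lie over copies of ribosomal RNA sequence.

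Of the markers given for these barcodes, Gm42418 and AY036118 map to one small stretch of chromosome 17 (genome build GRCm38, GENCODE release 21). Gm42418, a single-exon long non-coding RNA model, lies at chr17:39846958-39848788 on the plus strand and is 1831 bases long. AY036118, a single-exon model of 923 bases at chr17:39847113-39848035 on the minus strand, lies wholly inside it, so its sequence is the reverse complement of Gm42418 from position 156 to 1078. Gm26917 (chr17:39843013-39846341, plus strand) ends 616 bases before Gm42418. The sources used here do not state how strand entered the counting, so counts of Gm42418 and AY036118 cannot be told apart with certainty. The sequences below show the antisense overlap, with the first 10 bases of AY036118 and the bases of Gm42418 opposite to them in capitals (both chr17:39847996-39848035, 5′ to 3′).
AY036118: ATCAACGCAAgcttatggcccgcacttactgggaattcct
Gm42418: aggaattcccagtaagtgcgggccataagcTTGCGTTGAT

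Gm42418 also shares a stretch with the RNA of the small mitochondrial ribosomal subunit, mt-Rnr1. The longest exact match of both transcripts, 15 bases, is in capitals below with its flanks (Gm42418 at chr17:39848141-39848185, mt-Rnr1 at chrM:965-1009). The stretch AAGTCGTAACAAGGT was searched on both strands of the longest transcript of 6054 measured genes, and 1 of them, Gm42418, held it (0.0165%). A match is a description of the letters.
Gm42418: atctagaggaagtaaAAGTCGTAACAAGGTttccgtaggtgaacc
mt-Rnr1: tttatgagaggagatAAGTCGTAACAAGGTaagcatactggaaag

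Lars2, the third marker given for these barcodes, encodes the mitochondrial leucyl-tRNA synthetase and lies on chromosome 9 (chr9:123366927-123462666). Its longest transcript of 3894 bases shared at most 14 bases with mt-Rnr1 and at most 12 with mt-Rnr2, the RNA of the large subunit. A match of 14 bases to either of these RNAs was present in 10.6% of the measured transcripts.

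By depth, the low class was shallow in every library. The median number of UMIs, the molecular tags that count captured RNA molecules, was 655 in ND, 549.5 in HFD and 652 in HFD_HDCA, against 1929, 2460.5 and 2226 in the gene-rich class. The median number of genes was 380, 329 and 393 against 852, 1039 and 995. The lowest UMI total was 500 in ND and HFD_HDCA but 423 in HFD, so the HFD class reaches lower. Libraries shared few barcode sequences, with 1 shared between the low classes of HFD and HFD_HDCA and 0 between the other pairs.

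Low complexity, in the sense of few genes for a given number of molecules, was not what set these barcodes apart once depth was equal. After each barcode was thinned at random to 400 UMIs, the median number of genes was 263 in the low class and 256 in the gene-rich class of ND. In HFD_HDCA these medians were 274 and 270, and in HFD they were 253 and 259. The 20 most abundant nuclear-encoded transcripts took 24.97%, 23.1% and 24.1% of the low class counts and 25.3%, 24.2% and 24.1% of the gene-rich counts. In these measures the low class held fewer molecules, and at equal depth about as many genes, so it is described by its rule and not as low in complexity.

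**Figure D1:**
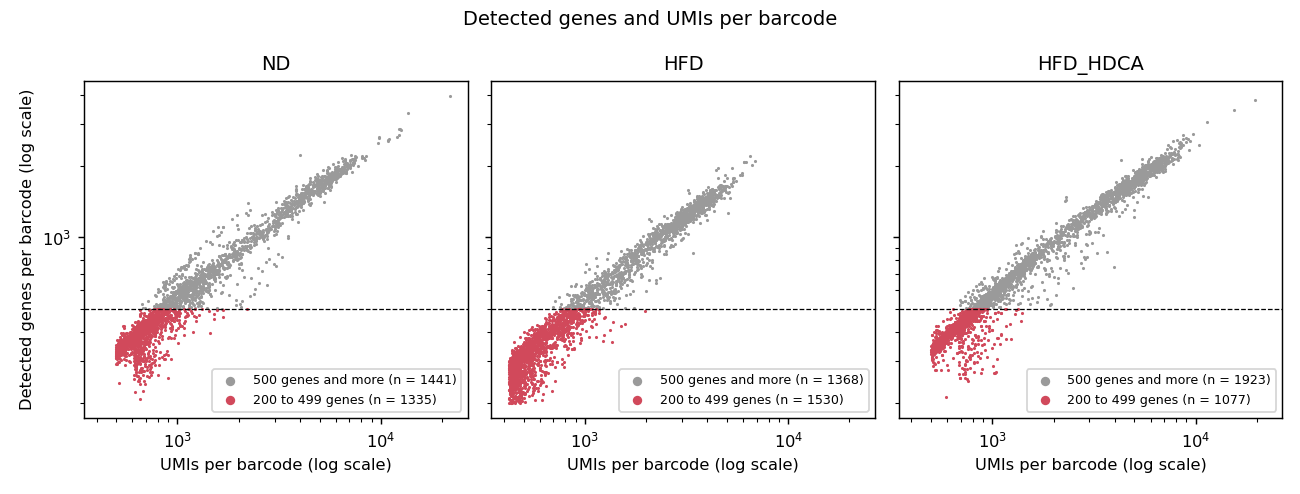
Detected genes (y axis, log scale) against UMIs (x axis, log scale) per barcode in each library, with the low class in red and the barcodes of 500 genes and more in grey; the dashed line is at 500 genes. The red points continue the grey band downwards, with a scatter of barcodes to its right that have fewer genes for their UMIs.

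The hepatocyte label held for most of these barcodes. At 400 UMIs the median low barcode had 13 of the 20 hepatocyte markers in each library, against 13 in ND and 14 in HFD and HFD_HDCA for the gene-rich class. Alb, the albumin gene, was detected in 100% of the ND, 99.5% of the HFD and 99.9% of the HFD_HDCA low barcodes at that depth. That share is no evidence of identity, since Alb was also found in 97.6%, 92.3% and 96.9% of the 84, 13 and 32 gene-rich barcodes with at least 3 UMIs of sinusoidal endothelial markers. Apoa1, the main protein of high density lipoprotein, separated the low class from endothelial-marked barcodes better at 400 UMIs. It was detected in 85.6% (exact binomial 95% interval 83.6 to 87.5%), 83.8% (81.8 to 85.6%) and 78.3% (75.7 to 80.7%) of the low barcodes, and in 78.0%, 79.6% and 70.5% of the gene-rich ones. The endothelial-marked barcodes had Apoa1 in 41.7%, 53.8% and 31.3%, with median depths of 1057, 956 and 929.5 UMIs before thinning. Without thinning, Apoa1 was found in 94.3%, 91.0% and 91.0% of the low and 98.1%, 99.0% and 97.7% of the gene-rich barcodes. Serpina1c went the other way at 400 UMIs, in 73.9%, 82.2% and 86.5% of the low and 77.8%, 90.4% and 90.9% of the gene-rich barcodes. Endothelial-marked gene-rich barcodes had Serpina1c in 27.4%, 53.8% and 53.1%. With each class scaled to its total, the 20 hepatocyte markers had median log2 ratios of low over gene-rich of -0.23, -0.35 and -0.27. Of these markers 12 were below 0 and 3 above in every library.

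Other cell types were present as a minority. At least 3 UMIs of the markers of any 1 of 9 other classes were found in 29 (2.17%), 34 (2.22%) and 26 (2.41%) of the low barcodes, and in 123 (8.54%), 32 (2.34%) and 62 (3.22%) of the gene-rich ones. These shares were taken without thinning, so the 2 classes were not at equal depth. Thinned to 400 UMIs, marked ND gene-rich barcodes went from 18 to 0 for bile duct and from 84 to 75 for endothelial markers. The ND low class had 0 for bile duct markers either way and went from 15 to 12 for endothelial markers. Endothelial markers at 400 UMIs marked 0.899%, 0.588% and 0.371% of the low and 5.20%, 0.731% and 1.35% of the gene-rich barcodes. The summed endothelial list was at 194, 134 and 96.8 CPM in the low class and at 550.5, 68.2 and 124 CPM in the gene-rich class, so its direction in HFD was opposite to that of the others. CPM are counts per 1000000 nuclear-encoded counts summed over the barcodes of a class. Kupffer cell markers, of the resident macrophages, were at 106, 133 and 145 CPM against 156, 166 and 165 CPM. The 10 T and NK cell markers summed to 7.75, 21.5 and 68.7 CPM in the low class against 7.14, 1.003 and 1.55 CPM, with 7, 5 and 2 of them at 0 in the low and 4, 8 and 8 in the gene-rich class. Neutrophil markers summed to 134, 65.8 and 0 CPM in the low class and to 0, 0.334 and 0.194 CPM in the gene-rich class. The low class sums came from 104, 49 and 0 counts, and 2, 1 and 0 low barcodes held at least 3 neutrophil marker UMIs. Low barcodes with at least 3 T and NK cell marker UMIs numbered 1, 3 and 8. Cholangiocyte markers, of bile duct cells, summed to 52.97, 18.8 and 9.37 CPM against 103, 34.1 and 36.3 CPM, and in ND all low class counts of the list were from Sox9.

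Immunoglobulin transcripts had the highest ranks of all, through very few barcodes. Igkc, the immunoglobulin kappa constant gene, had 19, 268 and 448 counts in the low classes and 0, 9 and 1 in the gene-rich classes, which in ND is at least 28.6-fold higher in CPM against a floor of 3 counts. One barcode alone held 483 of the 551 B and plasma cell marker counts of the HFD low class, and one held 700 of the 715 counts in HFD_HDCA. Ighm, the mu heavy chain, followed with 11, 144 and 217 counts against 3, 7 and 12. The haemoglobin gene Hbb-bs, ranked below AY036118, Gm42418, Lars2 and Rpl9-ps6, had 0 counts in both ND classes, 578 against 123 in HFD and 94 against 3 in HFD_HDCA, and the 10 highest barcodes held 95.4% of the erythroid marker counts in the HFD low class and 90.7% in the HFD_HDCA low class. These transcripts describe a handful of barcodes and not the low class as a whole. With classes made by the median UMI count in place of the gene number, the log2 ratio of Igkc was -1.84 in HFD and -6.00 in HFD_HDCA, and that of Ighm -0.53 and -3.12.

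Over all measured transcripts, few passed 2-fold between the classes. The 6057 measured transcripts were those with an expected count of at least 30 in the low classes summed over libraries, and their median log2 ratio of low over gene-rich CPM was 0.02 in ND, 0.06 in HFD and 0.01 in HFD_HDCA. Each class was scaled to its own total, so a median near 0 does not show how far the classes differ. The ratios from the 5th to the 95th percentile ran from -0.69 to 0.84, -0.70 to 0.99 and -0.72 to 0.79. A ratio of at least 2-fold higher was found for 177 transcripts in ND (2.92%), 293 in HFD (4.84%) and 138 in HFD_HDCA (2.28%). At least 2-fold lower were 94 (1.55%), 118 (1.95%) and 89 (1.47%). In all 3 libraries at once, with 0.5 added to each count, 40 transcripts were at least 2-fold higher (0.66%), while 0 passed 2-fold downwards (0%). Of the 40, Hbb-bs, Hba-a1 and Hba-a2 had no counts in either ND class, and 37 remain if a transcript must exceed 3 counts in a class of every library. The added 0.5 raises a ratio where the low class has fewer counts than the gene-rich class. In plain CPM Nsun3 was 2.14-fold, 2.60-fold and 2.98-fold lower, but its log2 ratio in ND was -0.99. Mrto4, one of the 40, was 1.99-fold higher in HFD_HDCA in plain CPM. Against gene-rich barcodes of under 1000 genes alone, 6 passed 2-fold upwards and 16 downwards in all 3 libraries. The 16 included Cdh5 and Aqp1 of the endothelial marker list and C1qa and Ctss of the Kupffer cell marker list. No p-value exists for these counts, because the libraries are single and the classes were made from the same counts, and all intervals cover counting error only.

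Gm42418 had the most counts of the 3 given markers. Its levels in the low class were 30568, 31582 and 24087 CPM in ND, HFD and HFD_HDCA, and 3929, 2390 and 3399 CPM in the gene-rich class. The low class was above the gene-rich class in all 3 libraries, 7.78-fold in ND, 13.2-fold in HFD and 7.09-fold in HFD_HDCA. The log2 ratios were 2.96 (95% interval 2.93 to 2.99), 3.72 (3.69 to 3.76) and 2.82 (2.79 to 2.86). The HFD interval lay above both others, with libraries as single measurements.

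AY036118, its antisense neighbour, was at 729, 734 and 446 CPM in the low class against 67.7, 35.1 and 56.5 CPM. Its log2 ratios were 3.43 (3.21 to 3.65), 4.38 (4.08 to 4.70) and 2.98 (2.74 to 3.22), in the same order of libraries as Gm42418. Lars2 was at 1406, 1305 and 1161 CPM against 191, 110 and 185 CPM, with ratios of 2.88 (2.74 to 3.02), 3.56 (3.38 to 3.75) and 2.65 (2.51 to 2.79). Gm26917, the model just upstream of Gm42418, was at 91.7, 142 and 101 CPM against 39.1, 18.1 and 36.7 CPM. These 4 were the only members of the list of models linked to ribosomal RNA or repeats to be at least 2-fold higher in all 3 libraries, of 7 measured and 21 listed, and the list's median log2 ratios were 1.23, 2.97 and 1.48. Over all measured transcripts 0.66% passed the same rule. The list holds the 3 given markers, so its count and medians were partly set in advance and are a description only.

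Single barcodes showed the same difference. The 3 given markers took a median of 2.73%, 2.95% and 2.36% of the nuclear-encoded counts of a low barcode in ND, HFD and HFD_HDCA. In a gene-rich barcode the medians were 0.218%, 0.137% and 0.194%. More than 5% was reached by 265 low barcodes in ND (19.9%), 424 in HFD (27.7%) and 92 in HFD_HDCA (8.54%), against 7, 3 and 11 gene-rich barcodes. None of the 3 markers was found in 98, 160 and 81 low barcodes, so the pattern was common but not universal. At 400 UMIs Gm42418 was detected in 89.7%, 86.3% and 90.8% of the low and 57.0%, 43.1% and 56.9% of the gene-rich barcodes. Without thinning, these shares were 92.3%, 88.9% and 92.2% against 89.6%, 87.2% and 89.9%. Endothelial-marked gene-rich barcodes also had Gm42418 at 400 UMIs, in 95.2%, 92.3% and 100%, so its presence does not mark hepatocytes.

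**Figure D2:**
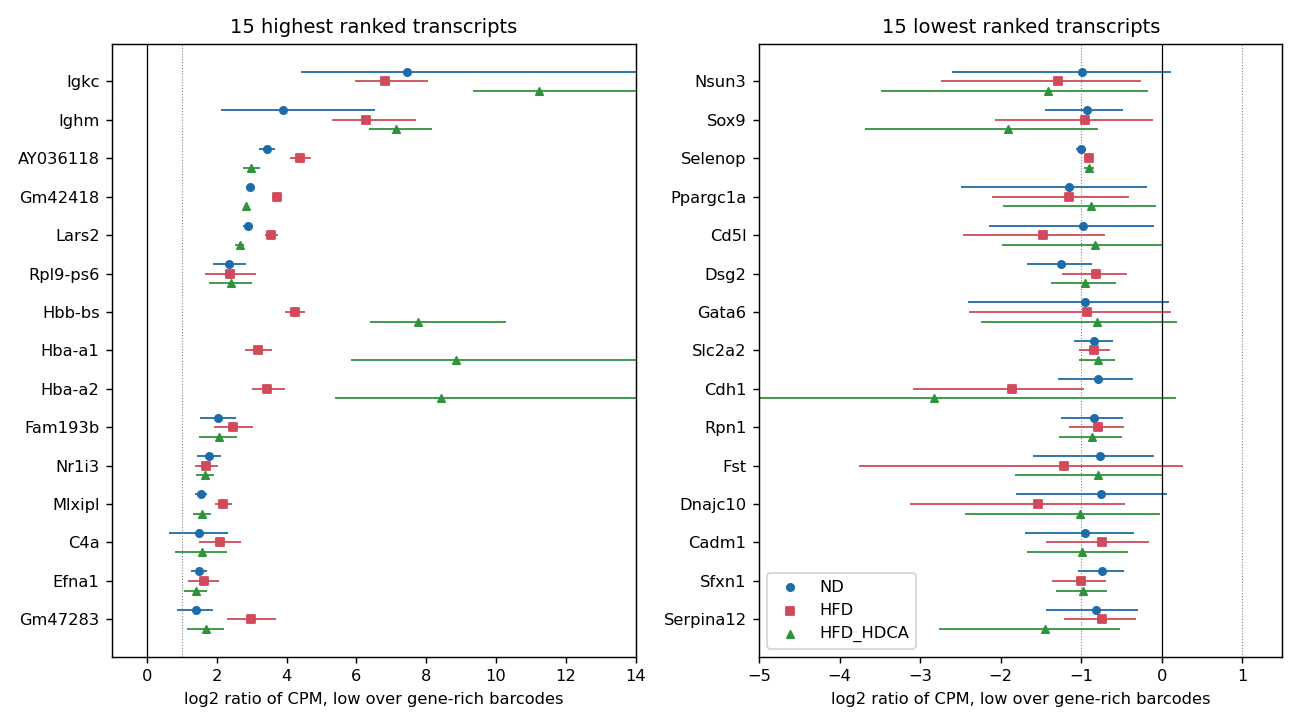
Log2 ratio of CPM, low over gene-rich barcodes (x axis), of the 15 highest and 15 lowest ranked transcripts in each library, with exact conditional 95% intervals as lines, running to the edge where a bound is beyond it; dotted lines mark 2-fold. Hbb-bs, Hba-a1 and Hba-a2 have no ND point because both classes had 0 counts; among the lowest, Selenop has ratios of -1.0, -0.91 and -0.90 with short intervals, and Cdh1 reaches -2.82 in HFD_HDCA with a wide one.

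Other high ranks were held by protein-coding transcripts. Nr1i3, which encodes the xenobiotic receptor CAR, was at 159, 196 and 290 CPM in the low class against 46.3, 60.5 and 92.0 CPM, with log2 ratios of 1.78 (1.43 to 2.13), 1.70 (1.37 to 2.02) and 1.66 (1.41 to 1.91). Mlxipl, which encodes the carbohydrate response factor ChREBP, was at 583, 404 and 279 CPM against 199, 88.6 and 93.3 CPM, 2.93-fold, 4.56-fold and 2.99-fold higher. Efna1, an ephrin ligand of the cell surface, was at 317, 103 and 158 CPM against 113, 33.4 and 59.8 CPM. All 3 were higher in the low class in each library.

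Fam193b was 4.06-fold, 5.54-fold and 4.11-fold higher in the low class, and C4a, a complement component 4 gene, was 2.79-fold, 4.26-fold and 2.95-fold higher. Rpl9-ps6 and Ftl1-ps1 are named for processed copies of a ribosomal protein and a ferritin gene, and Rpl9-ps6 was 5.13-fold, 5.22-fold and 5.23-fold higher. Reads of such copies may be shared with the parent genes, so both are uncertain. Gm47283 had log2 ratios of 1.39, 2.96 and 1.70.

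Nuclear-retained and intron-keeping transcripts formed the second group. Of 26 measured members of 30 listed, 20 were above 0 and 2 below 0 in every library, while 9 passed 1.5-fold and 3 passed 2-fold upwards in all 3. Over all measured transcripts, 218 (3.6%) were at least 1.5-fold higher in all 3 libraries, and 70 (1.16%) at least 1.5-fold lower. These shares are the background for the 1.5-fold counts of this and the following lists. Of the 6057, 1689 (27.9%) were above 0 in every library and 1380 (22.8%) below, the background for the counts by sign of this and the following lists. The list's median log2 ratio was 0.62 in ND, 0.87 in HFD and 0.45 in HFD_HDCA. Neat1, the RNA scaffold of nuclear paraspeckles, was at 771, 644 and 951 CPM in the low class against 327, 217 and 458 CPM. Nlrp6, an inflammasome sensor whose RNA is nuclear in liver, was at 124, 180 and 98.3 CPM against 43.7, 51.5 and 45.4 CPM. Ccnl2, a cyclin of splicing speckles, had log2 ratios of 0.77, 1.46 and 0.97.

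Malat1, the most studied nuclear RNA of the list, differed less. It was at 5646, 6724 and 5130 CPM in the low class against 4259, 3124 and 3399 CPM, with log2 ratios of 0.41 (0.36 to 0.46), 1.11 (1.06 to 1.16) and 0.59 (0.54 to 0.65). Its ratio passed 2-fold in HFD only. Summed, the list took 1.11%, 1.20% and 1.01% of low class counts against 0.799%, 0.634% and 0.684%.

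Selenop, the plasma carrier of selenium, was among the 15 lowest ranked, at 3165, 4071 and 3813 CPM in the low class and at 6334, 7636 and 7134 CPM in the gene-rich class. Its log2 ratios were -1.0 (-1.06 to -0.94), -0.91 (-0.96 to -0.85) and -0.90 (-0.96 to -0.84), the most precise values among the 15 lowest ranked. Slc2a2, the glucose transporter of the hepatocyte surface, was at 199, 340 and 286 CPM against 357, 607 and 497 CPM. Both were lower in the low class in each library by a similar factor.

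Among the others of the 15 lowest ranked were Dsg2, a desmosomal cadherin (log2 ratios of -1.25, -0.82 and -0.95), and Rpn1, a subunit of the oligosaccharyltransferase of the endoplasmic reticulum (-0.85, -0.79 and -0.86). Sfxn1, a serine carrier of the mitochondrial membrane, was at 151, 114 and 140 CPM against 254, 230 and 278 CPM. Cadm1, an adhesion molecule, was at 28.4, 33.6 and 37.5 CPM against 56.3, 57.2 and 75.7 CPM. Others rested on few low class counts. Nsun3, a methyltransferase of a mitochondrial transfer RNA, had 6, 7 and 4 counts, Ppargc1a, a coactivator of mitochondrial genes, had 8, 14 and 11, and Cdh1, E-cadherin, had 44, 9 and 0. Sox9, a regulator of bile duct cells, had 41, 11 and 5 counts, and Cd5l, a macrophage product, 10, 13 and 10. The ratio of Cd5l was above 0 in all 3 libraries (0.51, 0.43 and 0.69) without the barcodes that carried other cell types' markers. Cd5l is itself one of the Kupffer cell markers used to remove those barcodes, so this change of sign cannot be read as a result about Cd5l. The ratio of Fst, follistatin, was 0.84 in HFD among barcodes of at most 10% mitochondrial counts, and 0.095 in HFD_HDCA against gene-rich barcodes of under 1000 genes. Gata6, Fst, Dnajc10 and Serpina12 completed the set, with ratios between -0.74 and -1.53.

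Plasma protein transcripts as a list were slightly lower. All 60 were measured, and their median log2 ratio was -0.22 in ND, -0.26 in HFD and -0.25 in HFD_HDCA. In every library 34 (56.7%) were below 0 and 9 (15%) above, beside 22.8% and 27.9% of all measured transcripts. Among barcodes of at most 10% mitochondrial counts the median of ND was 0.01. In all 3, 6 passed 1.5-fold downwards and 1 upwards. Summed, they took 18.7%, 16.2% and 18.7% of low class counts against 21.9%, 20.3% and 21.1%.

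Alb was at 43806, 30325 and 38823 CPM in the low class against 57156, 48317 and 56040 CPM. Trf, the iron carrier transferrin, was at 4755, 3417 and 4118 CPM against 7481, 6133 and 6902 CPM, and Hpx, the haem carrier hemopexin, had log2 ratios of -0.70, -0.89 and -0.68. Apoa1 went the other way with ratios of 0.20, 0.25 and 0.38, as did Fetub, a secreted protease inhibitor, with 1.05, 0.95 and 0.66. The list therefore held members on both sides of 0.

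Genes of endoplasmic reticulum entry, folding and quality control had medians of -0.21, -0.21 and -0.11, with 19 of 35 measured (54.3%) below 0 in every library and 7 (20%) above, against 22.8% and 27.9% of all. Rpn1 was the only one of them at least 1.5-fold lower in all 3. Sec61a1, the main channel subunit for protein entry, had ratios of 0.78, 1.02 and 0.56. Spcs1, of the signal peptidase, had -0.48, -0.66 and -0.39, so members of the same route differed in sign.

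Zonation lists had medians of opposite sign. Periportal genes, expressed near the portal vein, had medians of -0.19, -0.43 and -0.45, with 17 of 26 measured (65.4%) below 0 in every library and 2 (7.69%) above. In all 3 libraries 5 passed 1.5-fold downwards and 1 upwards. Pericentral genes, expressed near the central vein, had medians of 0.30, 0.17 and 0.15, with 10 of 21 (47.6%) above 0 and 2 (9.52%) below in every library, where all measured transcripts had 27.9% above and 22.8% below. Among barcodes of at most 10% mitochondrial counts the pericentral medians were -0.12, -0.09 and -0.27, and the periportal median of ND was 0.14, so the signs of these lists depended on that limit. Cyp2f2, a periportal cytochrome P450, was at 1196, 546 and 192 CPM in the low class against 1891, 1213 and 438 CPM. Hal, the periportal histidine ammonia lyase, was at 415, 156 and 136 CPM against 583, 316 and 273 CPM. Mfsd2a, a lipid transporter, was the exception of its list at 31.0, 361 and 507 CPM against 12.0, 180 and 245 CPM. Among pericentral genes, Cyp27a1, a sterol hydroxylase, had ratios of 0.80, 1.22 and 0.85.

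Major urinary proteins, secreted lipocalins, were split. Mup20 was at 16202, 11010 and 7620 CPM in the low class against 26062, 23094 and 14428 CPM. Mup11 was higher at 2193, 8165 and 1934 CPM against 983, 5433 and 1151 CPM. These genes are near-identical copies, so counts of single members are uncertain. The list's median was 0.31, 0.20 and 0.38 over 16 measured members, while its summed ratio was -0.36, -0.16 and -0.35.

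Immediate early and heat shock genes, which cells switch on within a short time of a stimulus or stress, had medians of 0.14, 0.30 and 0.19, with 13 of 23 (56.5%) above 0 and 4 (17.4%) below in every library, against 27.9% and 22.8% of all. Ier2, an immediate early gene, had log2 ratios of 1.21, 1.06 and 0.87, and Nr4a1, an orphan nuclear receptor, had 1.02, 1.13 and 0.69. Hspa1b, an inducible heat shock protein, had -0.38, -1.23 and -0.82. Genes of cell death and the p53 response had medians of -0.20, 0.33 and 0.05 over 16 measured members. In all 3 libraries 0 were at least 1.5-fold different, against 3.6% higher and 1.16% lower of all.

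Metabolic lists had medians between -0.09 and 0.25. Fatty acid oxidation had medians of 0.21, 0.20 and 0.16, with 4 of 31 (12.9%) at least 1.5-fold higher in all 3 libraries, against 3.6% of all. The peroxisomal thiolase Acaa1a (0.92, 1.05 and 1.02) was among them. In every library 17 of this list (54.8%) were above 0 and 8 (25.8%) below, against 27.9% and 22.8% of all. Cholesterol and fatty acid synthesis had medians of 0.25, 0.06 and -0.02. In it 2 of 35 (5.71%) were at least 1.5-fold higher in all 3, Mlxipl and Fdps, near the 3.6% of all. Summed, this list was higher in the low class of ND, with a log2 ratio of 0.69 (0.66 to 0.71) and 2.12% against 1.32% of counts, while HFD and HFD_HDCA had -0.04 and -0.03. Fdps, which makes farnesyl diphosphate, had ratios of 1.15, 0.86 and 1.13, and Srebf1, the lipogenic regulator, had 1.05, 0.93 and 0.35. Xenobiotic enzymes (0.07, -0.04 and -0.08), urea cycle and amino acid genes (0.09, 0.07 and -0.09) and short housekeeping transcripts (-0.08, -0.03 and 0.07) had medians within 0.1 of 0.

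Nuclear-encoded genes of oxidative phosphorylation had medians of -0.07, 0.00 and 0.12, and 0 of 75 were at least 1.5-fold different in all 3 libraries. Cytoplasmic ribosomal proteins had medians of -0.13, 0.01 and 0.06, and 0 of 82 passed 1.5-fold in all 3. Over all measured transcripts 3.6% were higher and 1.16% lower by that rule. Liver transcription factors had medians of -0.09, 0.11 and 0.01 over 32 measured members. In that list 4 (12.5%) were at least 1.5-fold higher in all 3, with Nr1i3 the only one past 2-fold and Atf5, a stress-responsive factor, at 1.07, 1.02 and 0.65.

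**Figure D3:**
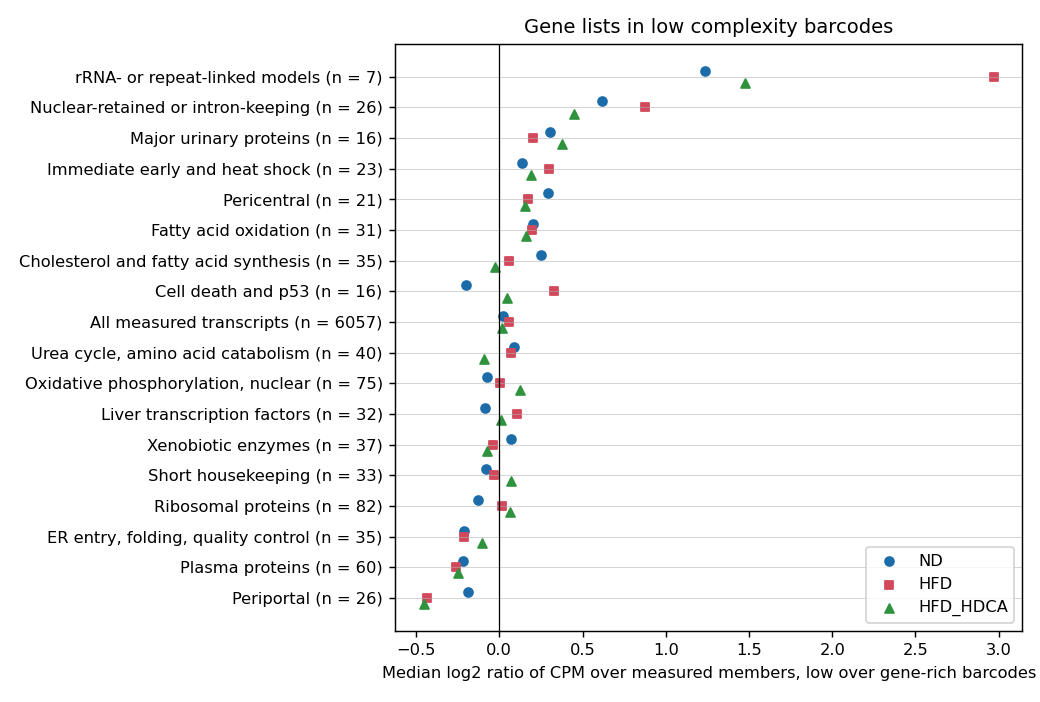
Median log2 ratio of CPM, low over gene-rich barcodes (x axis), over the measured members of each of 17 gene lists and over all measured transcripts (rows, with the number measured), 1 symbol per library. The rRNA- or repeat-linked list, which holds the 3 given markers, and the nuclear-retained list lie to the right in all 3 libraries. The endoplasmic reticulum, plasma protein and periportal lists lie to the left.

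Base composition differed between the transcripts at either end. Among protein-coding transcripts, the 204 with a sequence that were at least 1.5-fold higher in all 3 libraries had a median GC content of 54.3%, against 47.5% for the 70 at least 1.5-fold lower and 48.6% for all 5961 measured. From the lowest to the highest of 5 equal groups by GC, the median log2 ratio went from -0.07 to 0.17 in ND, from -0.04 to 0.25 in HFD and from -0.08 to 0.20 in HFD_HDCA. The highest group held 96 of the transcripts at least 1.5-fold higher and the lowest held 11. Annotated retained-intron models were present for 66.2% of the higher, 44.3% of the lower and 63.3% of all measured protein-coding genes. The longest annotated transcript was 2484 bases at the median for the higher, 2897 for the lower and 3036 for all. Base composition and class membership moved together, and the part of GC content in the ratios was not tested.

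The levels of Gm42418 and Lars2 followed the number of genes on both sides of the 500 gene border. Gm42418 went from 65603 CPM in ND barcodes of 200 to under 300 genes through 35825 and 22021 CPM in the next steps of 100 genes. Past the border it was at 12304, 5599, 2244 and 1450 CPM in barcodes of 500 to under 750, 750 to under 1000, 1000 to under 1500, and 1500 genes and more. In HFD it went from 58820 CPM in the lowest bin to 1608 CPM in the highest, and in HFD_HDCA from 59398 to 1406 CPM. Lars2 went from 2816 to 66.2 CPM in ND, from 2125 to 59.1 CPM in HFD and from 2683 to 56.6 CPM in HFD_HDCA. The gene-rich class itself thus spanned a wide range of these levels. The lowest bin also differed from the next in mitochondrial share, with medians of 39.4%, 24.7% and 44.97% against 9.87%, 11.5% and 5.14% in ND, HFD and HFD_HDCA. Its median depth was 652, 462 and 729 UMIs against 593, 560 and 568, so it was shallower in HFD only. The part of the mitochondrial share in the step between these bins was not tested.

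Selenop and Slc2a2 ran the other way along the same bins. Selenop was at 2913, 3354 and 3903 CPM in the barcodes of under 300 genes and at 6708, 7235 and 7666 CPM in those of 1500 genes and more. Slc2a2 was at 162, 246 and 305 CPM in the lowest bin and at 400, 573 and 522 CPM in the highest. Mlxipl and Neat1 had no single direction within the low class. In ND, Mlxipl was at 356, 584 and 600 CPM in the 3 low bins, while in HFD it was at 420, 457 and 321 CPM. The lowest bin held 76 barcodes in ND and 40 in HFD_HDCA but 549 in HFD.

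Near the border the difference was smaller than between the whole classes. In barcodes of 450 to under 500 genes Gm42418 was at 19241, 14265 and 19411 CPM in the 3 libraries, and in those of 500 to under 550 genes at 15924, 9140 and 18162 CPM. Selenop was at 3705, 4784 and 3879 CPM just inside and at 3739, 5938 and 4391 CPM just outside. Median depths were 818.5, 843.5 and 780 UMIs inside and 935, 946 and 889 outside.

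**Figure D4:**
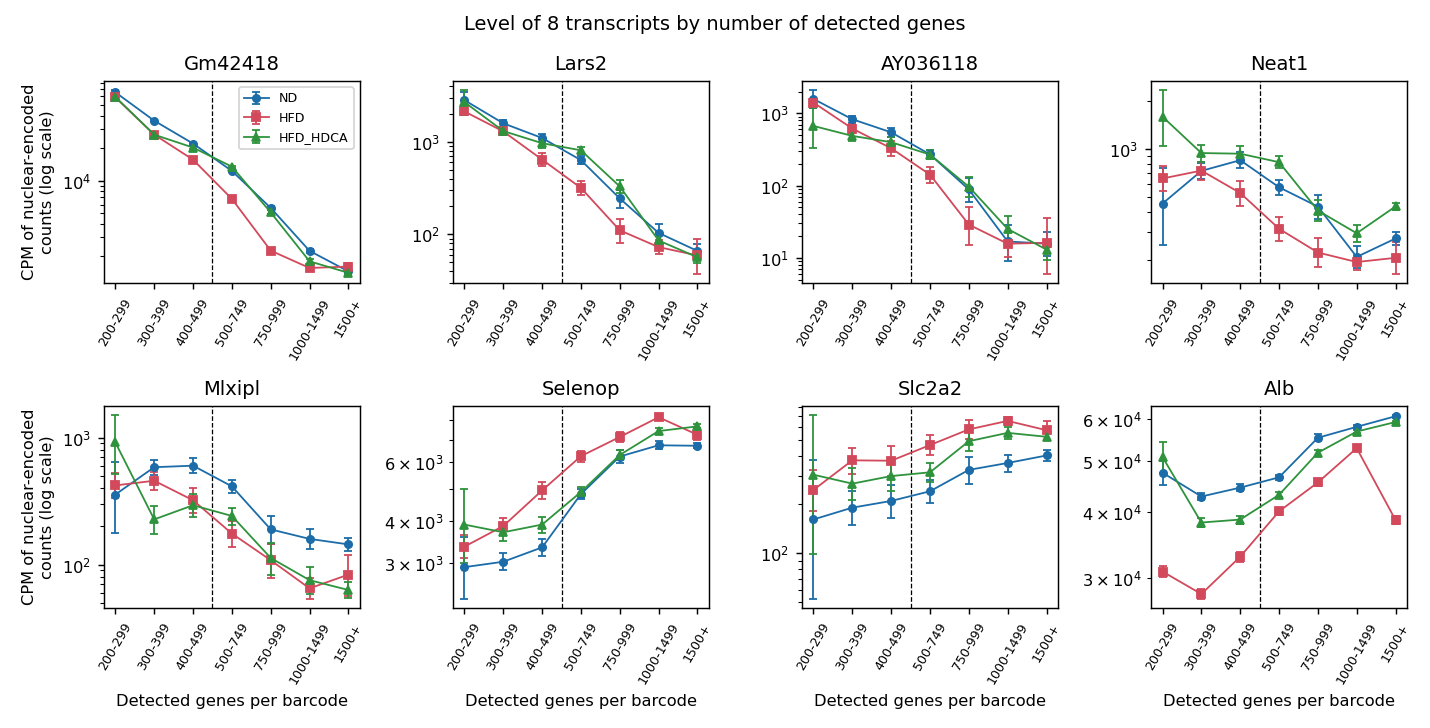
CPM (y axis, log scale, exact Poisson 95% intervals) of 8 transcripts in 7 bins of detected genes (x axis), 1 line per library; the dashed line marks the border at 500 genes. Gm42418, Lars2 and AY036118 are lower in the last bin than in the first and Selenop and Slc2a2 are higher; Alb in HFD is lower again in the last bin.

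The share of mitochondrial counts varied widely within the low class. The median was 10.1% in ND, 15.8% in HFD and 5.16% in HFD_HDCA, against 12.4%, 11.2% and 8.78% in the gene-rich class. A share of at most 10% was found in 49.8%, 31.9% and 71.8% of the low barcodes. The HFD low class was thus the most mitochondrial of the 3 and the HFD_HDCA low class the least.

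Gm42418 was high in low barcodes at every mitochondrial share. In the low class it was at 26093, 19603 and 22700 CPM where the share was at most 5%, and at 40250, 41962 and 34810 CPM where it was over 25%. Within the band of at most 5%, its log2 ratio of low over gene-rich was 1.74 (1.68 to 1.80) in ND, 2.84 (2.74 to 2.94) in HFD and 1.99 (1.94 to 2.04) in HFD_HDCA. Within 10 to 25% the ratios were 3.73, 3.95 and 3.26. Lars2 had ratios of 2.05, 2.94 and 1.85 in the lowest band. The difference was therefore present where both classes had few mitochondrial counts.

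Of the nuclear-retained list, Mlxipl, Malat1 and Neat1 differed less, or in the other direction, in the highest band than in the lowest. Nlrp6 did so in HFD only, with ratios of 1.34, 1.04 and 0.63 at a share of at most 5%. Over 25% its ratios were 1.34, 0.35 and 1.01, the last from 9 low class and 7 gene-rich counts. Its HFD intervals overlapped, at -0.41 to 2.25 in the lowest band, from 8 low class and 19 gene-rich counts, and -0.53 to 1.33 in the highest. The ratio of Mlxipl was 1.31 (0.91 to 1.70), 1.41 (0.52 to 2.22) and 1.16 (0.69 to 1.61) at a share of at most 5%. Over 25% it was 0.04 (-0.52 to 0.59) in ND, 1.21 (0.56 to 1.96) in HFD and 0.28 (-0.60 to 1.12) in HFD_HDCA. The Mlxipl intervals of both bands overlapped in HFD and HFD_HDCA but not in ND. Malat1 was lower in the low class of ND there, at -0.34 (-0.49 to -0.19), with 0.94 (0.79 to 1.09) in HFD and -0.15 (-0.33 to 0.03) in HFD_HDCA. Neat1 had 0.23 (-0.21 to 0.68), 0.85 (0.36 to 1.38) and 0.54 (0.12 to 0.95). Over 25% the summed nuclear-retained list took 1.01%, 1.43% and 1.16% of low class counts against 1.19%, 0.808% and 1.12%, so its direction was reversed in ND and nearly level in HFD_HDCA. At most 5% it took 1.01%, 0.764% and 0.870% against 0.685%, 0.416% and 0.543%. Selenop was lower in the low class in every band, with ratios of -0.61, -0.61 and -0.65 at most 5% and of -0.74, -1.01 and -0.86 over 25%.

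The barcodes with over 50% mitochondrial counts resembled the low class and went further for some transcripts. They numbered 2977 in ND, 3354 in HFD and 1863 in HFD_HDCA, with medians of 136, 111 and 152 genes. Gm42418 was at 68102, 70921 and 54018 CPM in them, and Lars2 at 3477, 3476 and 2977 CPM, both above the low class in each library. Neat1 was at 1214, 968 and 1159 CPM and also above it. AY036118 was at 664, 790 and 369 CPM, below the low class in ND and HFD_HDCA. Slc2a2 (278, 374 and 451 CPM) and Alb (53845, 39673 and 58578 CPM) were above the low class in all 3 libraries.

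**Figure D5:**
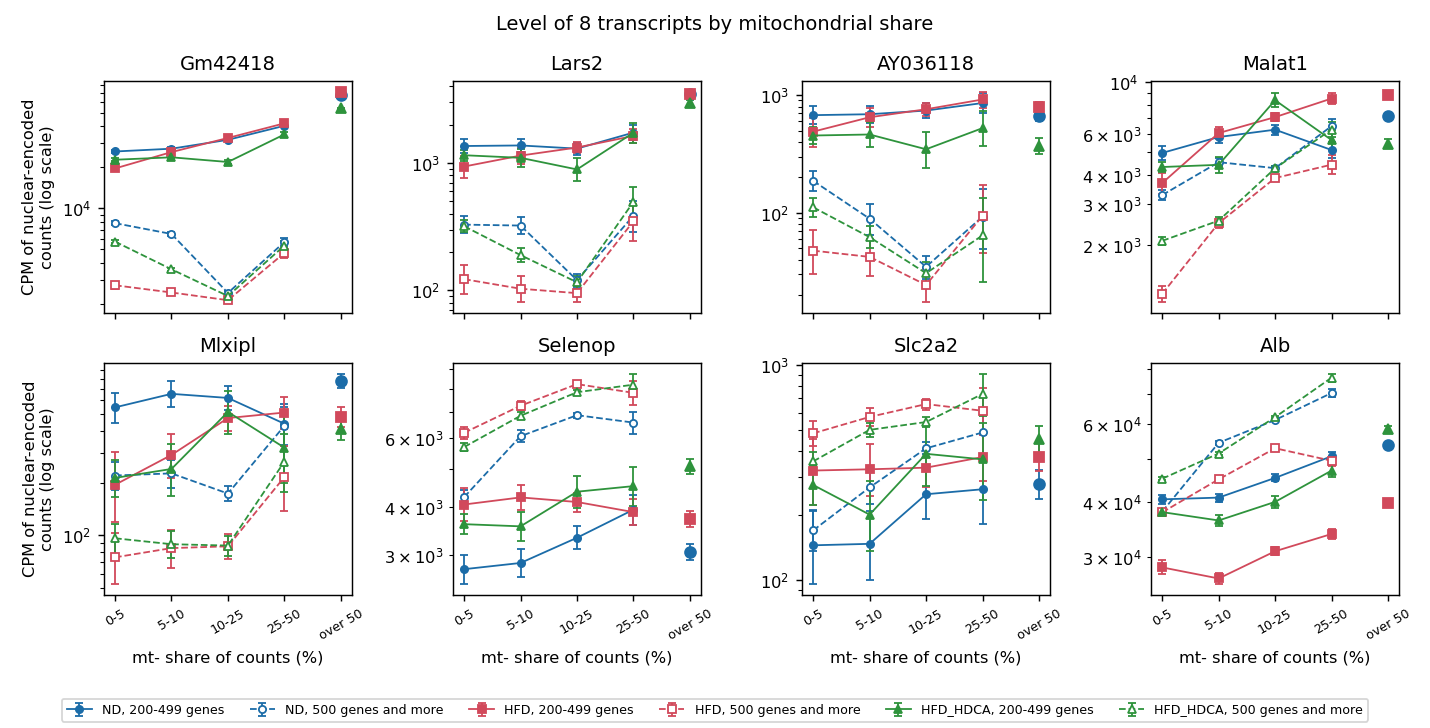
CPM (y axis, log scale, exact Poisson 95% intervals) of 8 transcripts by mitochondrial share of counts (x axis, bands in percent); filled symbols with solid lines are the low class, open symbols with dashed lines those of 500 genes and more, and the single large symbols on the right all barcodes over 50%. Gm42418, Lars2 and AY036118 lie higher in the low class in every band, and Selenop lies lower in every band.

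Within the mitochondrial counts, the 13 transcripts encoded there kept nearly the same proportions. The largest component, mt-Co1 of cytochrome oxidase, was 18.1%, 17.2% and 17.0% of mitochondrial counts in the low class and 21.7%, 20.01% and 20.1% in the gene-rich class. The widest ratio was that of mt-Nd6, a complex I subunit and the only one encoded on the light strand, with log2 ratios of 0.59, 0.72 and 0.47. It was 0.536%, 0.629% and 0.549% of mitochondrial counts in the low class. The other 12 lay between -0.35 and 0.40.

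The diets were compared within the low class on 20 transcripts that differed between these libraries in earlier results, so the values below are a description of how far the low barcodes carry the same differences. For HFD over ND, 17 of the 20 were at least 2-fold different in the low class and 15 in the gene-rich class. For HFD_HDCA over HFD these counts were also 17 and 15. The 2 comparisons share the HFD library. Over all measured transcripts in the low class, 320 (5.28%) passed 2-fold upwards and 294 (4.85%) downwards in HFD over ND, and 204 (3.37%) upwards and 258 (4.26%) downwards in HFD_HDCA over HFD. In the gene-rich class, with more counts, these were 180 (2.97%), 164 (2.71%), 70 (1.16%) and 76 (1.25%).

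Cyp7a1, the rate-limiting enzyme of classical bile acid synthesis, was at 38.8, 248 and 12.5 CPM in the low barcodes of ND, HFD and HFD_HDCA. The gene-rich barcodes had 37.1, 200 and 14.6 CPM, the same order. Lpin1, a phosphatidate phosphatase, was at 31.0, 1039 and 417 CPM in the low class and Alas1, which starts haem synthesis, at 54.3, 662 and 407 CPM. Cyp2b9 was found almost only in HFD_HDCA, with 0, 1 and 132 counts. Selenbp2, a selenium binding protein, was at 191, 815 and 3.12 CPM, the last from 2 counts. For these 5 transcripts the order of the 3 libraries was the same in gene-rich barcodes. The size of the ratio could still differ. Selenbp2 had an HFD over ND log2 ratio of 2.09 (1.83 to 2.36) in low and 0.71 (0.59 to 0.84) in gene-rich barcodes.

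Some diet transcripts differed between the classes by library. For HFD over ND, the intervals of low and gene-rich barcodes overlapped for 15 of the 20. The exceptions were Cyp3a11, Scd1, Selenbp2, Mup7 and Saa1. For HFD_HDCA over HFD they overlapped for 16, with Cyp3a11, Lpin1, Cyp2c70 and Mup7 the exceptions. Scd1, the main fatty acid desaturase, was at 15159 CPM in the ND low class against 8043 CPM in the gene-rich class, but at 3132 against 3189 CPM in HFD and 2291 against 2427 CPM in HFD_HDCA. Its log2 ratio of HFD over ND was -2.27 (-2.34 to -2.21) in the low and -1.33 (-1.37 to -1.30) in the gene-rich class. Cyp3a11, a drug-metabolising P450, was at 6049, 72.5 and 240 CPM in the low class against 4145, 115 and 171 CPM. Its HFD over ND ratio was -6.37 (-6.80 to -6.00) against -5.16 (-5.32 to -5.01). Angptl8, a regulator of lipoprotein lipase, was at 866, 18.8 and 133 CPM against 595, 26.1 and 94.5 CPM. Its HFD over ND intervals overlapped, at -6.40 to -4.77 in the low class, from 14 HFD counts, and -4.86 to -4.19 in the gene-rich class. Mitochondrial share, depth and the level of Gm42418 also differed between these libraries' low classes, as given above, and their part in these ratios was not tested.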

How the data were processed

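The deposited matrices hold UMI counts per gene and barcode, and their file headers name Cell Ranger 5.0.0, with mm10 per the submitters' processing notes. The sources used here do not state how barcodes were selected or aligner settings. Totals were 8677998, 7593447 and 8753465 UMIs in ND, HFD and HFD_HDCA. Counts were summed per library and class and expressed per 1000000 nuclear-encoded counts. The 13 mt- genes stayed out of the total. Log2 ratios used a pseudocount of 0.5, with exact conditional binomial 95% intervals. CPM had exact Poisson intervals, shares exact binomial ones, and a count of 0 was read against a floor of 3. Intervals cover counting error only. Doublets were not removed and no clustering was done.

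Members, markers and the 17 lists were chosen with earlier results of these data known. Named transcripts were the 15 highest and 15 lowest by the log2 ratio nearest 0 of the 3 libraries among those with 1 sign, the 3 given markers, up to 4 per list, and the diet list. Some named members of lists near 0 are not described. A few transcripts under this rule are not reported here. Malat1, Apoa1, Alb, Serpina1c, Hnf4a, Ttr, Ftl1-ps1, mt-Co1, mt-Nd6 and the border classes' values were added after their values were seen, as was the 1.5-fold rule. Alternatives covered class borders, mitochondrial limits, scaling, weighting, count minimum, pseudocount and thinning. The ratio and interval code was tested on simulated data. Transcript models and sequences are from GENCODE release 21 (GRCm38). Software was Python 3.11.15, numpy 2.4.6, pandas 2.3.3 and scipy 1.17.1.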

Additional observations from a re-analysis of the deposited data

Results flagged for a closer look

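Transcripts that were at least 2-fold higher in the low class of one library and at least 2-fold lower in another, with both counting intervals excluding 0, numbered 6, and the difference between libraries was not tested because each diet has 1 library. Of these, 3 are known from endothelium. Igfbp7, an insulin-like growth factor binding protein of vessels, had log2 ratios of 1.51 in HFD and -1.92 in ND. Egfl7, a secreted endothelial factor, had 1.42 in HFD_HDCA and -1.71 in ND. Ptprb, the vascular endothelial phosphatase, had 1.35 in HFD and -1.37 in ND. Barcodes with at least 3 endothelial marker UMIs, counted without thinning, numbered 15 in the low and 84 in the gene-rich class of ND, 9 and 13 in HFD, and 6 (0.557%) and 32 (1.66%) in HFD_HDCA. The part of these barcodes in the ratios was not tested. The other 3 rested on few counts. 4931406P16Rik had 1.25 in HFD and -1.64 in HFD_HDCA, from 20 and 2 low class counts. Ncln, a protein of the endoplasmic reticulum membrane, had 1.11 and -1.15 from 24 and 5 counts, and 5730455P16Rik had 1.02 and -1.15 from 21 and 5.

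Barcodes under 200 genes were outside all comparisons. Erythroid markers took 64.3% of the nuclear-encoded counts of the 2 such barcodes in ND, 66.9% in the 10 of HFD_HDCA and 2.68% in the 38 of HFD. Their median mitochondrial share was 6.05%, 5.13% and 45.9% in ND, HFD_HDCA and HFD.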

How the results depend on the processing

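The count of 40 transcripts at least 2-fold higher in all 3 libraries became 6 with the gene-rich class limited to under 1000 genes, 20 with at most 10% mitochondrial counts, 19 with every barcode weighted equally, 15 with gene-rich barcodes thinned, 94 and 17 with an expected count of at least 10 or 100, 63 with a pseudocount of 5 and 218 with a fold of 1.5. It ranged from 46 to 95 when 1 library was left out (66 without ND, 46 without HFD, 95 without HFD_HDCA). The other alternatives gave 32 to 56. The count of 0 transcripts at least 2-fold lower became 16 with the gene-rich class of under 1000 genes, 10 with equal weights, 10 with thinning, 6 with an expected count of at least 10, 70 with a fold of 1.5, 1 with CPM of all counts, and 2 under each of wider class borders, classes by UMIs, and at most 25% or 10% mitochondrial counts. It ranged from 6 to 13 without 1 library (13 without ND, 6 without HFD, 9 without HFD_HDCA), and was 0 under the others. The rule is less strict with a library left out, a lower fold or a lower expected count, so there both counts could only stay or rise. A larger pseudocount raises a ratio where the low class has fewer counts than the gene-rich class. The cause of the remaining changes was not tested. The lower transcripts under equal weights and under thinning both included the macrophage genes Cd5l and Mpeg1 and the endothelial gene Cdh5. Those against gene-rich barcodes of under 1000 genes also included Cdh5.

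Gm42418 kept log2 ratios of 1.61 to 3.62 in ND, 2.80 to 4.33 in HFD and 1.24 to 3.48 in HFD_HDCA over 16 alternatives, and Selenop -1.11 to -0.74, -1.08 to -0.72 and -0.98 to -0.51. Signs reversed with classes by UMIs for Igkc (-1.84 in HFD, -6.00 in HFD_HDCA), Ighm (-0.53 and -3.12) and Cd5l (0.021 in HFD), without other cell types' barcodes for Cd5l (0.51, 0.43 and 0.69), at 10% mitochondrial counts for Fst (0.84 in HFD) and with a pseudocount of 5 for Cdh1 (0.29 in HFD_HDCA). The removal of other cell types' barcodes used Cd5l itself as a marker, so that reversal is tied to the filter. Of 816 list values under alternatives, 147 moved by more than the SD of the 3 libraries' medians and 50 changed sign, of which 15 were in cholesterol synthesis, 9 in liver transcription factors, and 4 in the pericentral list. Of 4272 transcript values 513 moved out of their interval and 8 of those past 2-fold reversed. The alternatives of a 1.5-fold rule, over 3 counts, at least 500 UMIs and leaving out a library were chosen after seeing the data. Diet counts within the low class stayed within 1.5 times of those reported. No paired analysis was possible because each group has 1 library. A transcript with few counts in the low class, such as Nsun3, cannot be placed on either side of 2-fold at this depth.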
